A study of Mus musculus with 33 samples.

Results

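The genes of iron uptake, storage and export were followed through 11 sorted cell groups of the mouse bone marrow. The 9 genes were Tfrc, Slc11a2, Slc11a1, Hmox1, Fth1, Ftl1, Slc40a1, Aco1 and Ireb2, taken by symbol from a count table of 54752 features, and all 9 were among the 18198 genes tested. Bulk RNA sequencing libraries had been made from 3 biological replicates of each group, 33 libraries in all. In 4 sepsis groups, killed 3 days after a mid-grade CLP, the operation that models sepsis by tying off and piercing the caecum, the cells were Ly6C- GMP (Ly6C-negative granulocyte-monocyte progenitors), proNeu1, proNeu2 and preNeu. The 7 control groups came from mice described only as WT. They were Ly6C- GMP, the successive neutrophil-path stages proNeu1, proNeu2 and preNeu, and the monocyte-path stages cMoP (common monocyte progenitor), TpMo (transitional pre-monocyte) and Ly6Chi (Ly6C-high) monocyte. Strain, age and sex are not in the labels, and no monocyte-path group was taken in sepsis.

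Cells take up iron bound to transferrin through the transferrin receptor, move it out of the endosome with a divalent metal transporter, and use it in mitochondria for haem and iron-sulphur clusters. Surplus iron is held inside ferritin, a shell of heavy and light chains, and leaves the cell through ferroportin, the only known iron exporter of mammals. Iron regulatory proteins bind stem-loops called iron-responsive elements in low iron. Binding in a 5′ UTR blocks translation, and binding in the 3′ UTR of the transferrin receptor transcript protects that transcript from decay. In myeloid cells iron also serves the haem enzyme myeloperoxidase, is recycled from red cells by macrophages, and is withheld from microbes.

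The elements are shown because they are the sequence feature that ties several of the 9 genes to a common regulator. UTRs of annotated coding transcripts (GENCODE M21, GRCm38, transcript strand only) were searched for a C, any 5 bases, the loop CAGTGN and another 5 bases, where at least 4 of the 5 positions on either side of the loop pair and G-T counts as a pair. Such a match stood in 5 of the 9 genes and in 4.9% of 21901 protein-coding genes. With all 5 pairs required, 4 of the 9 genes and 0.731% of the protein-coding genes had a match. Each element is printed 5′ to 3′ on its transcript strand with the 6 loop letters in capitals.
Fth1, 5′ UTR, chr19:9982732-9982761, + strand: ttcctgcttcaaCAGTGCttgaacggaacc
Ftl1, 5′ UTR, chr7:45459778-45459807, - strand: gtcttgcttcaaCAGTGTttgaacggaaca
Slc40a1, 5′ UTR, chr1:45925464-45925493, - strand: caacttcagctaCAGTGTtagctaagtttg
Slc11a2, 3′ UTR, chr15:100395152-100395181, - strand: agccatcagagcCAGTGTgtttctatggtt
Tfrc, 3′ UTR, element 1, chr16:32631219-32631248, + strand: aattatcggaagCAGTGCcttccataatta
Tfrc, 3′ UTR, element 2, chr16:32631598-32631627, + strand: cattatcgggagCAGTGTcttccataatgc
Tfrc, 3′ UTR, element 3, chr16:32631663-32631692, + strand: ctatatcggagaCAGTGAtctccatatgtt
Tfrc, 3′ UTR, element 4, chr16:32631710-32631739, + strand: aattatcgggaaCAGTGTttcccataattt

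Both ferritin chains and Slc40a1 carry the element in the 5′ UTR, and Tfrc and Slc11a2 carry it in the 3′ UTR. Only the Slc11a2 match had 4 pairs, and the other 7 had 5. A match in these letters is a description and not a measured binding site. The libraries count RNA and do not measure translation, so control exerted through the 5′ elements is not visible in them.

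Levels are given in CPM, the count divided by the library's total in Mcounts (megacounts), as mean ± SD over 3 libraries. Totals ran from 5.52 to 40.0 Mcounts per library; 5 libraries had at most 6.78 and the other 28 at least 17.2. Fold changes come from edgeR's quasi-likelihood test with TMM scaling over all 33 libraries, as log2 change ± SE, and a gene is called changed at a Benjamini-Hochberg adjusted p under 0.05 over 18198 genes. TMM scaling adds between -0.07 and 0.21 to the log2 ratio of the CPM means, with 0.21 in preNeu over proNeu2 and in preNeu over monocytes, 0.20 in TpMo over cMoP, 0.13 in sepsis Ly6C- GMP over Ly6C- GMP and 0.12 in proNeu1 over Ly6C- GMP. Overlap of libraries is read in CPM throughout, without the TMM factors. In bulk libraries fewer cells of a type and less RNA per cell cannot be told apart. The 9 monocyte-path libraries had at most 1.40 CPM of Xist and at least 68.8 CPM of Ddx3y, and the other 24 had at least 153 CPM of Xist and at most 0.725 CPM of Ddx3y, so path and sex of the animals cannot be told apart. The summed level of 7 neutrophil-path markers was 77603 to 95986 CPM in proNeu1, proNeu2 and preNeu control libraries. It was 30093 to 32275 CPM in cMoP, 2204 to 2313 CPM in TpMo and 103 to 162 CPM in Ly6Chi monocytes, so cMoP libraries held these transcripts too. The summed level of 5 monocyte markers was 5879 to 6771 CPM in the monocyte-path libraries and at most 1606 CPM elsewhere. That of 6 eosinophil, basophil and mast cell markers was 13247 to 20084 CPM in control Ly6C- GMP, 103 to 166 CPM in proNeu1 and 14.4 to 27.4 CPM in cMoP. All 6 were called lower in proNeu1 and in cMoP than in Ly6C- GMP, against 2.45% and 7.96% of all genes. Megakaryocyte markers summed to 213 to 284, 5.85 to 13.9 and 1.15 to 3.34 CPM in these groups. The part of these cells in changes against Ly6C- GMP was not tested.

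**Figure D1:**
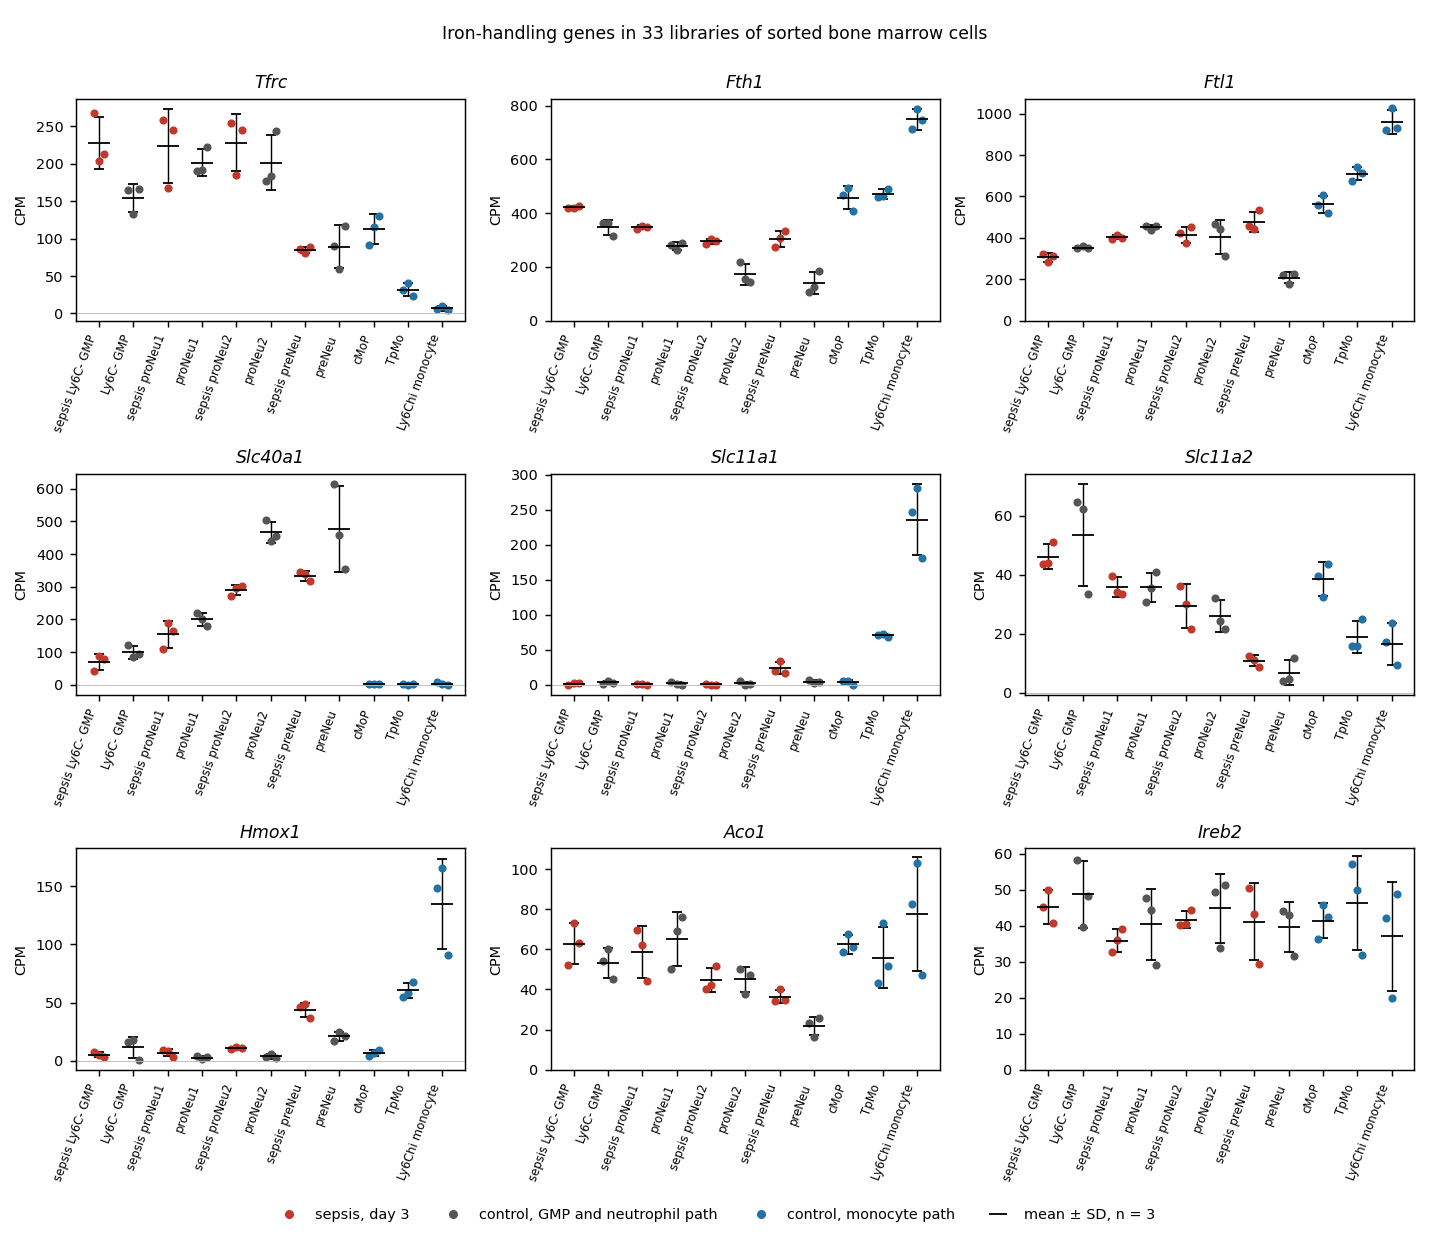
CPM of each of the 9 genes in all 33 libraries (points), by group, with the mean and SD of 3 libraries (bars); the y axis is linear and differs between panels. Slc40a1 reached 615 CPM in a preNeu library and stayed at or under 7.48 CPM in the monocyte path, while Slc11a1, Hmox1, Fth1 and Ftl1 had their highest group means in Ly6Chi monocytes.

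Along the neutrophil path most calls among the 9 genes, as among all genes tested, came at the step into preNeu. In proNeu1 against Ly6C- GMP, 1 of the 9 rose and 1 fell, 2 called in all, against 6.04% of all genes tested, of which 3.59% rose and 2.45% fell. In proNeu2 against proNeu1 it was 1 of the 9, a fall, against 3.05% of all genes and 1.48% lower. In preNeu against proNeu2, 5 of the 9 were called, against 27.8% of all genes; 1 rose, against 13.1%, and 4 fell, against 14.7%. The median log2 change of the 9 genes at these steps was -0.15, 0.10 and -0.11, beside 0.00, -0.01 and 0.00 for all genes tested. With library totals as the only scaling the calls over all genes split otherwise, into 469 higher and 581 lower in proNeu1 against Ly6C- GMP (654 and 446 with TMM), 150 and 348 in proNeu2 against proNeu1 (285 and 270), and 1760 and 3529 in preNeu against proNeu2 (2377 and 2683).

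Along the monocyte path Tfrc fell at the steps to TpMo and to Ly6Chi monocytes, Ftl1 rose at all 3 steps, and Fth1 rose in cMoP and in Ly6Chi monocytes. In cMoP against Ly6C- GMP, 3 of the 9 genes were called, against 17.2% of all genes; 2 rose, against 9.22%, and 1 fell, against 7.96%. In TpMo against cMoP it was 4 of the 9, against 18.1%; 3 rose, against 9.52%, and 1 fell, against 8.56%. In Ly6Chi monocytes against TpMo it was 3 of the 9, against 20.9%; 2 rose, against 7.59%, and 1 fell, against 13.3%. The median log2 change of the 9 genes at these steps was -0.20, 0.24 and 0.48, beside 0.00 for all genes each time. With library totals the calls over all genes in TpMo against cMoP were 1206 higher and 2350 lower (1733 and 1557 with TMM), and with DESeq2 those in Ly6Chi monocytes against TpMo were 2088 and 2377 (1382 and 2420 in edgeR). Between the paths, proNeu1 against cMoP gave 3 of the 9, against 16.3% of all genes; 2 were higher, against 8.25%, and 1 lower, against 8.03%. In preNeu against Ly6Chi monocytes 8 of the 9 were called, against 39.8%; 2 were higher, against 21.0%, and 6 lower, against 18.9%. Neighbouring comparisons share libraries.

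**Figure D2:**
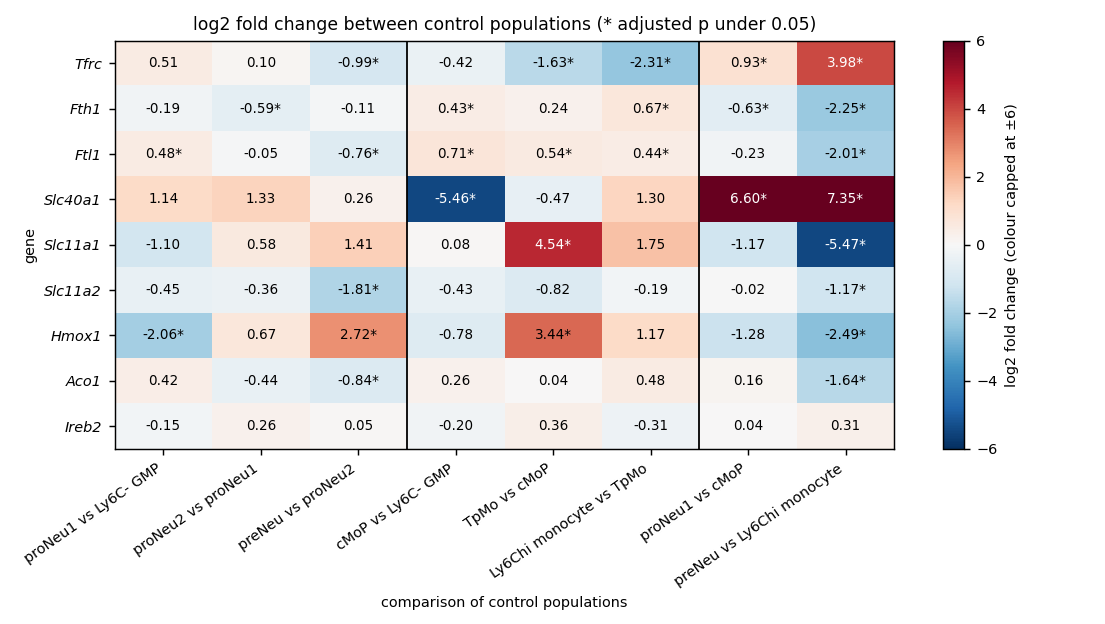
Log2 fold change of each gene (rows) in the 8 comparisons between control populations (columns), later stage over earlier, or neutrophil path over monocyte path; asterisks mark an adjusted p under 0.05 and colour is capped at ±6. Slc40a1 shows the largest values, 6.60 in proNeu1 over cMoP and 7.35 in preNeu over Ly6Chi monocytes, and Ireb2 has no asterisk.

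Tfrc (chr16:32608920-32632794, + strand) encodes the transferrin receptor, the main entry for transferrin-bound iron. Along the neutrophil path it had 165, 133 and 166 CPM in Ly6C- GMP, 190.4, 192 and 222 CPM in proNeu1, 177, 183 and 244 CPM in proNeu2 and 90.7, 59.7 and 117 CPM in preNeu. Along the monocyte path it had 91.6, 116 and 131 CPM in cMoP, 31.8, 40.8 and 22.9 CPM in TpMo and 5.25, 10.3 and 4.98 CPM in Ly6Chi monocytes. Every preNeu library lay below every proNeu2 library, and the 3 monocyte-path stages did not overlap.

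Tfrc fell 1.98-fold in preNeu against proNeu2, a log2 change of -0.99 ± 0.23 (adjusted p = 0.00158). It fell 3.09-fold in TpMo against cMoP (-1.63 ± 0.24, adjusted p = 9.23e-06) and a further 4.97-fold in Ly6Chi monocytes against TpMo (-2.31 ± 0.26, adjusted p = 6.59e-08). The proNeu1 libraries were all above those of Ly6C- GMP, with a change of 0.51 ± 0.23 that was not called (adjusted p = 0.223). In cMoP against Ly6C- GMP the change of -0.42 ± 0.23 was not called either (adjusted p = 0.23). Between paths Tfrc was 1.90-fold higher in proNeu1 than in cMoP (adjusted p = 0.00527) and 15.8-fold higher in preNeu than in Ly6Chi monocytes (adjusted p = 9.63e-13). In the order of group means, neighbouring groups from the 3 progenitor groups of sepsis down to proNeu1 and proNeu2 overlapped in range, as did cMoP, preNeu and sepsis preNeu.

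Slc11a2 (chr15:100387898-100425072, - strand) encodes the divalent metal transporter that carries iron out of the endosome. Its level was 64.8, 62.1 and 33.6 CPM in Ly6C- GMP, 31.0, 35.5 and 40.9 CPM in proNeu1, 32.3, 24.2 and 21.7 CPM in proNeu2 and 4.20, 4.72 and 11.8 CPM in preNeu. It was 39.7, 32.4 and 43.6 CPM in cMoP, 15.8, 16.0 and 25.0 CPM in TpMo and 17.2, 23.5 and 9.38 CPM in Ly6Chi monocytes. Each preNeu library was under each proNeu2 library. Slc11a2 fell 3.51-fold in preNeu against proNeu2 (log2 change -1.81 ± 0.33, adjusted p = 0.000111). In TpMo against cMoP the libraries did not overlap, but the change of -0.82 ± 0.31 was not called (adjusted p = 0.0698); it was called in 6 of 14 alternatives, among them leaving out TpMo replicate 3. Against Ly6Chi monocytes preNeu was 2.26-fold lower (adjusted p = 0.0057) although 1 preNeu library lay above the lowest monocyte library, and the call was lost when only the libraries of these 2 groups were fitted (adjusted p = 0.127). Gene counts do not separate transcripts that end in the 3′ UTR element from those that do not.

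Slc11a1 (chr1:74375195-74386062, + strand) encodes the phagosomal metal transporter known for natural resistance to intracellular microbes. It was low in most progenitors, with group means of 0.472 to 4.44 CPM outside TpMo, Ly6Chi monocytes and sepsis preNeu. No count was recorded in cMoP replicate 3, sepsis proNeu1 replicate 3 and sepsis proNeu2 replicate 2, which allows up to 0.172, 0.143 and 0.173 CPM by 3 counts of each total. These limits take each count as independent and would be higher if both mates of a pair were counted. Along the monocyte path it had 4.66, 5.71 and 0 CPM in cMoP, 71.6, 71.8 and 68.3 CPM in TpMo and 247, 280.5 and 181 CPM in Ly6Chi monocytes. These 3 groups did not overlap.

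Slc11a1 rose 23.2-fold in TpMo against cMoP (log2 change 4.54 ± 1.07, adjusted p = 0.00263). The next step to Ly6Chi monocytes was 1.75 ± 0.93 and not called over all libraries (adjusted p = 0.201), but was called when only those 2 groups were fitted (adjusted p = 0.000662). In preNeu it was 7.41, 2.65 and 3.26 CPM, which is 44.4-fold lower than in Ly6Chi monocytes (log2 change -5.47 ± 1.12, adjusted p = 0.000212).

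Hmox1 (chr8:75093621-75100589, + strand) encodes haem oxygenase 1, which opens the haem ring and frees its iron. Along the neutrophil path it had 15.6, 17.7 and 0.723 CPM in Ly6C- GMP, 3.54, 1.06 and 3.15 CPM in proNeu1, 3.15, 5.90 and 1.96 CPM in proNeu2 and 16.7, 24.5 and 21.4 CPM in preNeu. Along the monocyte path it had 3.63, 6.90 and 8.73 CPM in cMoP, 55.1, 58.5 and 67.9 CPM in TpMo and 148, 165 and 90.9 CPM in Ly6Chi monocytes. Low values in proNeu1 and proNeu2 stood between higher ones in preNeu and in 2 of the 3 Ly6C- GMP libraries.

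Hmox1 rose 6.61-fold in preNeu against proNeu2 (log2 change 2.72 ± 0.62, adjusted p = 0.00118) and 10.9-fold in TpMo against cMoP (3.44 ± 0.63, adjusted p = 0.000169). It fell 4.17-fold in proNeu1 against Ly6C- GMP (-2.06 ± 0.63, adjusted p = 0.0491), but the groups overlapped through Ly6C- GMP replicate 3. That call was lost in 8 of 14 alternatives, among them leaving out Ly6C- GMP replicate 1 or 2 or any 1 of the proNeu1 libraries, with an adjusted p of up to 0.304. The step to Ly6Chi monocytes against TpMo was 1.17 ± 0.57 and not called (adjusted p = 0.156), and cMoP against Ly6C- GMP, at -0.78 ± 0.59, was called only without Ly6C- GMP replicate 3 (adjusted p = 0.0463). In preNeu Hmox1 was 5.64-fold lower than in Ly6Chi monocytes (adjusted p = 0.0012).

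Fth1 (chr19:9980598-9985098, + strand) encodes the ferritin heavy chain, which oxidises iron as it enters the shell. Along the neutrophil path it had 365, 363 and 315 CPM in Ly6C- GMP, 282, 263 and 291 CPM in proNeu1, 217, 156 and 144 CPM in proNeu2 and 108, 125 and 184 CPM in preNeu. Along the monocyte path it had 467, 495 and 409.9 CPM in cMoP, 459, 463 and 491 CPM in TpMo and 712, 789.8 and 748 CPM in Ly6Chi monocytes. Each step down to proNeu2 separated the libraries, but the change of -0.19 ± 0.12 in proNeu1 against Ly6C- GMP was not called (adjusted p = 0.429). The preNeu libraries overlapped with those of proNeu2.

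Fth1 fell 1.51-fold in proNeu2 against proNeu1 (log2 change -0.59 ± 0.12, adjusted p = 0.00693). That call was lost without proNeu2 replicate 2 or 3 and when only those 2 groups were fitted, with an adjusted p of at most 0.0748. Fth1 rose 1.35-fold in cMoP against Ly6C- GMP (0.43 ± 0.12, adjusted p = 0.0133; lost without Ly6C- GMP replicate 3 or cMoP replicate 2, adjusted p up to 0.0837) and 1.59-fold in Ly6Chi monocytes against TpMo (0.67 ± 0.12, adjusted p = 0.000125). In TpMo against cMoP the libraries overlapped in CPM and the change of 0.24 ± 0.12 was not called (adjusted p = 0.193). With the TMM factors, 0.9735 to 0.982 in TpMo against 1.112 to 1.134 in cMoP, these libraries were apart. Fth1 was 1.54-fold lower in proNeu1 than in cMoP (adjusted p = 0.000508) and 4.74-fold lower in preNeu than in Ly6Chi monocytes (adjusted p = 1.79e-14).

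Ftl1 (chr7:45457944-45459884, - strand) encodes the ferritin light chain, which helps form the mineral core. It had 350.1, 359 and 349 CPM in Ly6C- GMP, 455, 439 and 459 CPM in proNeu1, 465, 441 and 312 CPM in proNeu2 and 220.3, 178 and 225 CPM in preNeu. It had 559, 605 and 522 CPM in cMoP, 676, 742 and 713 CPM in TpMo and 922, 1027 and 932 CPM in Ly6Chi monocytes. The 3 monocyte-path stages did not overlap, and in CPM preNeu lay under all other groups.

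Ftl1 rose 1.39-fold in proNeu1 against Ly6C- GMP (log2 change 0.48 ± 0.11, adjusted p = 0.00715). That call was lost without proNeu1 replicate 3 and with library totals as the only scaling, with an adjusted p of up to 0.0653. Ftl1 fell 1.69-fold in preNeu against proNeu2 (-0.76 ± 0.11, adjusted p = 6.31e-06). At each monocyte-path step it rose, 1.63-fold in cMoP against Ly6C- GMP (adjusted p = 3.45e-05), 1.45-fold in TpMo against cMoP (adjusted p = 0.000762) and 1.35-fold in Ly6Chi monocytes against TpMo (adjusted p = 0.00461). In preNeu it was 4.02-fold lower than in Ly6Chi monocytes (log2 change -2.01 ± 0.12, adjusted p = 2.34e-14). Ferritin has processed pseudogenes, and reads shared with them could be split by the counting. Rows named as ferritin pseudogenes (2 for Fth1 and 3 for Ftl1) held at most 1.36% of the summed counts for Fth1 and 2.32% to 4.60% for Ftl1. Adding them changed no call of either gene. Pseudogenes under other names were not added. Reads dropped by the counting for having several positions would be in no row, so adding rows cannot show their effect.

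Slc40a1 (chr1:45908068-45926523, - strand) encodes ferroportin, the exporter. Along the neutrophil path it had 121, 83.8 and 93.4 CPM in Ly6C- GMP, 219.7, 202 and 180.2 CPM in proNeu1, 504, 442 and 456 CPM in proNeu2 and 615, 459 and 353 CPM in preNeu. Along the monocyte path it had 3.14, 1.94 and 1.38 CPM in cMoP, 2.09, 0.558 and 1.57 CPM in TpMo and 7.48, 0.995 and 0.272 CPM in Ly6Chi monocytes. Every library of the monocyte path was under every library of Ly6C- GMP and of the neutrophil path.

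Slc40a1 fell 44.0-fold in cMoP against Ly6C- GMP (log2 change -5.46 ± 0.57, adjusted p = 3.99e-08). It was 96.7-fold higher in proNeu1 than in cMoP (6.60 ± 0.59, adjusted p = 4.95e-09) and 163-fold higher in preNeu than in Ly6Chi monocytes (7.35 ± 0.61, adjusted p = 4.92e-11), and these 3 calls held in all 14 alternatives of each. Up to proNeu2 the libraries of each neutrophil-path stage were all above those of the stage before. The change was 1.14 ± 0.45 in proNeu1 against Ly6C- GMP (adjusted p = 0.153) and 1.33 ± 0.45 in proNeu2 against proNeu1 (adjusted p = 0.111). Neither passed with all 33 libraries in the fit, and both passed when only the 2 groups were fitted (adjusted p = 0.00337 and 0.00107). In Ly6Chi monocytes against TpMo the value of 1.30 ± 0.62 (adjusted p = 0.148) ranged from -1.69 to 1.90 over the alternatives, with monocyte replicate 1 far above the other 2 libraries, and it was called without replicate 3 (adjusted p = 0.00596).

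Macrophages are a known source of Slc40a1 RNA, so their markers are set beside it. The summed level of 13 macrophage markers was 81.1 to 176 CPM in Ly6C- GMP, 81.4 to 109.6 CPM in proNeu1, 579.7 to 715 CPM in proNeu2 and 223 to 303 CPM in preNeu. It was 66.9 to 89.9 CPM in cMoP, 160.5 to 177 CPM in TpMo and 346 to 564 CPM in Ly6Chi monocytes. In proNeu2 against proNeu1 both this sum and Slc40a1 were higher in every library. Most of the sum in proNeu2 was Vcam1, an adhesion molecule, with 626 ± 67.9 CPM in proNeu2. The complement genes C1qa, C1qb and C1qc averaged at most 2.29 CPM in proNeu2 and at most 4.29 CPM in preNeu, and Timd4 was at 0 in all proNeu2 and preNeu libraries. These are only some of the 13 markers, and the levels of the others are not given singly. Of the 12 markers tested, 1 was called higher and 0 lower in proNeu2 against proNeu1, against 3.05% of all genes called. Their median log2 change there was 1.035, beside -0.007 for all genes. In cMoP against Ly6C- GMP 1 was called higher and 3 lower, against 17.2% of all genes called. The summed level of 11 erythroid markers with a row in the table was 92.1 to 152 CPM in Ly6C- GMP, 83.1 to 151 CPM in proNeu1, 39.2 to 76.5 CPM in proNeu2 and 23.0 to 46.2 CPM in preNeu. In cMoP, where Slc40a1 fell, it was 15.2 to 22.0 CPM. There 5 of the 11 markers were called lower than in Ly6C- GMP, against 7.96% of all genes. The part of these cells in the Slc40a1 level was not tested.

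Aco1 (chr4:40143081-40198338, + strand) encodes cytosolic aconitase, which becomes iron regulatory protein 1 when it loses its iron-sulphur cluster. It had 23.4, 16.6 and 25.6 CPM in preNeu, against 50.1, 37.7 and 47.1 CPM in proNeu2, with no overlap, and its other control group means lay between 53.4 and 77.5 CPM. Aco1 fell 1.79-fold in preNeu against proNeu2 (log2 change -0.84 ± 0.24, adjusted p = 0.00884; 0.0581 without preNeu replicate 2). It was 3.13-fold lower in preNeu than in Ly6Chi monocytes (-1.64 ± 0.25, adjusted p = 2.82e-06). In Ly6Chi monocytes against TpMo the change of 0.48 ± 0.24 was called only without monocyte replicate 3 (adjusted p = 0.0174). Ireb2 (chr9:54863789-54912530, + strand) encodes iron regulatory protein 2, which is controlled mainly by breakdown of the protein. Its group means lay between 35.9 and 48.8 CPM in all 11 groups, a span of 1.36-fold, with single libraries from 20.1 to 58.3 CPM. Ireb2 was called in none of the 14 tests, and its SE of about 0.27 on the log2 scale sets what could be seen.

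Levels of different genes can be compared only per length, as RPKM (CPM per kilobase of exon, with lengths from the count table). On this scale preNeu had 160.5 ± 46.3 RPKM of Fth1, 155 ± 19.4 of Ftl1, 52.8 ± 14.6 of Slc40a1 and 14.4 ± 4.65 of Tfrc. Ly6Chi monocytes had 866 ± 45.2 RPKM of Fth1, 717 ± 43.4 of Ftl1, 0.324 ± 0.441 of Slc40a1 and 1.11 ± 0.482 of Tfrc. Both ferritin transcripts were the most abundant of the 9 in every group.

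In sepsis Fth1 was called higher in all 4 populations, Ftl1 in preNeu and Tfrc in Ly6C- GMP. The Tfrc call and the Fth1 calls in Ly6C- GMP and proNeu1 were lost in several alternatives, library totals among them. In sepsis Ly6C- GMP against Ly6C- GMP, 2 of the 9 genes rose and 0 fell, against 17.7% of all genes called, 10.3% higher and 7.42% lower. In sepsis proNeu1 against proNeu1, 1 of the 9 rose and 0 fell, against 15.6%, 8.3% higher and 7.3% lower. In sepsis proNeu2 against proNeu2, 1 of the 9 rose and 0 fell, against 17.0%, 9.45% higher and 7.57% lower. In sepsis preNeu against preNeu, 2 of the 9 rose and 0 fell, against 11.8%, 7.57% higher and 4.21% lower. The median log2 change of the 9 genes was -0.07, -0.10, 0.06 and 0.73 in Ly6C- GMP, proNeu1, proNeu2 and preNeu, beside -0.01, -0.03, 0.00 and 0.00 for all genes. For the mean of the 4 effects 3 of the 9 genes rose and 0 fell, against 37.1% of all genes called, 19.6% higher and 17.5% lower. In Ly6C- GMP the calls over all genes turned with library totals as the only scaling, to 1361 higher and 1829 lower, against 1872 and 1351 with TMM.

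Summed B and plasma cell, erythroid and neutrophil-path markers were lower in sepsis in all 4 populations, with no overlap of libraries. The summed level of 8 B and plasma cell markers was 43.0 to 86.4 CPM in sepsis Ly6C- GMP, against 912 to 1147 CPM in Ly6C- GMP, and 104 to 319 CPM in sepsis proNeu1, against 3627 to 6661 CPM in proNeu1. It was 34.8 to 75.3 CPM in sepsis proNeu2, against 411 to 529 CPM in proNeu2, and 32.3 to 63.5 CPM in sepsis preNeu, against 282 to 967 CPM in preNeu. All 7 of these markers that were tested were called lower for the mean sepsis effect, against 17.5% of all genes. The sum of the 11 erythroid markers, a cell type rich in Tfrc, was 28.0 to 30.2 CPM in sepsis Ly6C- GMP, against 92.1 to 152 CPM in Ly6C- GMP, and 15.6 to 21.3 CPM in sepsis proNeu1, against 83.1 to 151 CPM in proNeu1. It was 23.9 to 34.4 CPM in sepsis proNeu2, against 39.2 to 76.5 CPM in proNeu2, and 15.8 to 21.1 CPM in sepsis preNeu, against 23.0 to 46.2 CPM in preNeu. The sum of the 7 neutrophil-path markers was 31381 to 35282 CPM in sepsis proNeu1, against 80327 to 84299 CPM in proNeu1, 37241 to 40077 CPM in sepsis proNeu2, against 90957 to 95986 CPM in proNeu2, and 40319 to 46872 CPM in sepsis preNeu, against 77603 to 93494 CPM in preNeu. The part of these shifts in the sepsis values of the 9 genes was not tested.

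Fth1 had 419, 421 and 426 CPM in sepsis Ly6C- GMP, against 365, 363 and 315 CPM in Ly6C- GMP. In proNeu1 it had 341, 354 and 350.3 CPM in sepsis, against 282, 263 and 291 CPM in control, and in proNeu2 it had 286, 306 and 295 CPM in sepsis, against 217, 156 and 144 CPM in control. In preNeu it had 273, 307 and 332 CPM in sepsis, against 108, 125 and 184 CPM in control. In all 4 populations every sepsis library was above every control library.

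The Fth1 change in sepsis was 1.33-fold in Ly6C- GMP (log2 change 0.41 ± 0.12, adjusted p = 0.0181), 1.30-fold in proNeu1 (0.38 ± 0.12, adjusted p = 0.0319), 1.74-fold in proNeu2 (0.80 ± 0.12, adjusted p = 2.8e-05) and 2.12-fold in preNeu (1.08 ± 0.12, adjusted p = 6.45e-07). Its mean effect was 0.67 ± 0.06 (adjusted p = 9.94e-10). The effect differed between populations (interaction test, adjusted p = 0.0206), where 2 of the 9 genes were called, against 6.34% of all genes. The calls in proNeu2 and preNeu held in all alternatives. The Ly6C- GMP call was lost with library totals as the only scaling and without Ly6C- GMP replicate 3, sepsis Ly6C- GMP replicate 1 or sepsis Ly6C- GMP replicate 3 (adjusted p up to 0.176). The proNeu1 call was lost in 7 of 14 alternatives, among them library totals and leaving out proNeu1 replicate 1 or 2 or sepsis proNeu1 replicate 2 or 3 (adjusted p up to 0.122).

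Ftl1 had 457, 443 and 533 CPM in sepsis preNeu, against 220.3, 178 and 225 CPM in preNeu. In Ly6C- GMP it had 323, 283 and 310.1 CPM in sepsis, against 350.1, 359 and 349 CPM in control, and in proNeu1 395, 413 and 398 CPM in sepsis, against 455, 439 and 459 CPM in control. In CPM the sepsis libraries were all higher in preNeu, and all lower in Ly6C- GMP and proNeu1. In Ly6C- GMP the sets overlapped with the TMM factors, 1.031 for sepsis replicate 1 against 1.136 to 1.168 in control. In sepsis proNeu2 it had 422, 373 and 450.1 CPM, against 465, 441 and 312 CPM in proNeu2, with overlap. Ftl1 rose 2.20-fold in sepsis preNeu (log2 change 1.14 ± 0.11, adjusted p = 7.6e-08). In the other 3 populations its change lay between -0.11 and 0.06 and was not called. The effects differed between populations (interaction test, adjusted p = 6.63e-06). The mean effect of 0.25 ± 0.06 (adjusted p = 0.000624) became -0.04 without preNeu (adjusted p = 0.692).

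**Figure D3:**
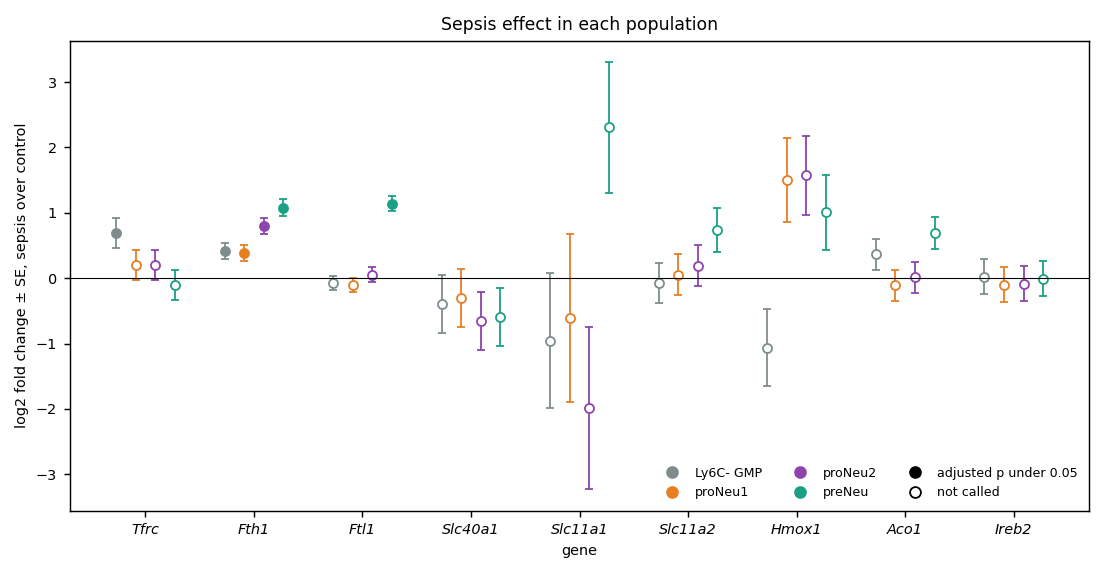
Log2 fold change ± SE, sepsis over control, for each of the 9 genes in Ly6C- GMP, proNeu1, proNeu2 and preNeu (colours); filled points have an adjusted p under 0.05. Fth1 is filled in all 4 populations and Ftl1 only in preNeu, at 1.14, while Slc40a1 lies between -0.66 and -0.30 with open points.

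The ratio of the ferritin chains, Fth1 over Ftl1 on the RPKM scale, was 2.14 ± 0.146 in sepsis Ly6C- GMP, against 1.52 ± 0.113 in Ly6C- GMP. It was 1.34 ± 0.0186 in sepsis proNeu1, against 0.956 ± 0.0268 in proNeu1, and 1.11 ± 0.138 in sepsis proNeu2, against 0.660 ± 0.0974 in proNeu2. In these 3 populations all sepsis libraries lay above all control libraries. In sepsis preNeu, where both chains rose, it was 0.987 ± 0.0756, against 1.04 ± 0.259 in preNeu, with overlap. On the monocyte path the ratio was 1.26 ± 0.0394 for cMoP, 1.03 ± 0.0538 for TpMo and 1.21 ± 0.0290 for Ly6Chi monocytes. The ratio is a description and was not tested.

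**Figure D4:**
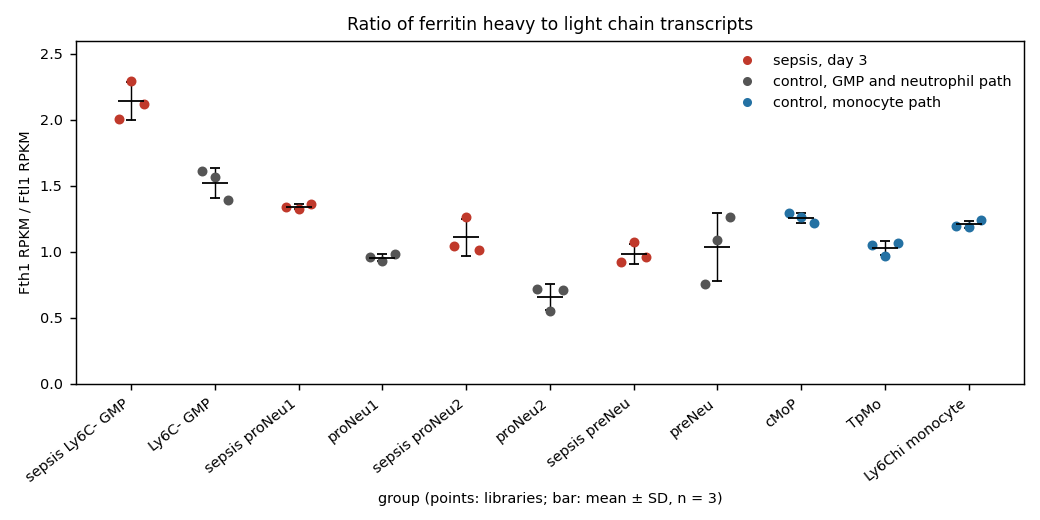
Ratio of Fth1 RPKM to Ftl1 RPKM in each library (points) by group, with mean ± SD of 3 libraries (bars). The ratio is higher in sepsis than in control in Ly6C- GMP (2.14 against 1.52), proNeu1 (1.34 against 0.956) and proNeu2 (1.11 against 0.660), and the libraries overlap in preNeu.

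Tfrc had 268, 204 and 213 CPM in sepsis Ly6C- GMP, against 165, 133 and 166 CPM in Ly6C- GMP, with no overlap. It rose 1.62-fold there (log2 change 0.69 ± 0.23, adjusted p = 0.0349). The call was lost in 7 of 14 alternatives, among them library totals and leaving out any 1 Ly6C- GMP library or sepsis Ly6C- GMP replicate 1 or 3, with an adjusted p of up to 0.176. In the other 3 populations the Tfrc libraries of sepsis and control overlapped, with changes between -0.11 and 0.21, and the effects were not shown to differ between populations (interaction adjusted p = 0.419). The summed level of 6 eosinophil, basophil and mast cell markers was 2626 to 5177 CPM in sepsis Ly6C- GMP, against 13247 to 20084 CPM in Ly6C- GMP, and that of 7 neutrophil-path markers 23702 to 27636 CPM, against 42557 to 52068 CPM. That of 4 megakaryocyte markers was 49.7 to 65.9 CPM, against 213 to 284 CPM. The part of these shifts and of the B cell and erythroid ones in the Tfrc and Fth1 values was not tested.

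Slc40a1 was lower in each population in sepsis by value, and no change passed. In proNeu2 it had 273, 297 and 302 CPM in sepsis, against 504, 442 and 456 CPM in control, and in preNeu 344, 338 and 317 CPM in sepsis, against 615, 459 and 353 CPM in control. Both sets of libraries were apart in CPM. With the TMM factors, 0.8523 for sepsis preNeu replicate 1 and 0.9265 for preNeu replicate 3, the preNeu libraries overlapped. The log2 change was -0.66 ± 0.44 in proNeu2 (adjusted p = 0.343) and -0.60 ± 0.44 in preNeu (adjusted p = 0.452), and the mean effect over the 4 populations was -0.49 ± 0.22 (adjusted p = 0.0858). With only the groups compared in the fit the proNeu2 and mean changes passed (adjusted p = 0.00178 and 0.00186). The macrophage marker sum was 148 to 170.3 CPM in sepsis proNeu2, against 579.7 to 715 CPM in proNeu2, and 108 to 125 CPM in sepsis preNeu, against 223 to 303 CPM in preNeu. Most of the sum in control proNeu2 was Vcam1. Of the 12 markers tested, 4 were called lower and 0 higher for the mean sepsis effect, against 17.5% and 19.6% of all genes. In sepsis proNeu2 1 of the 12 was called lower and 0 higher, against 7.57% and 9.45% of all genes. In sepsis preNeu 2 were lower and 1 higher, against 4.21% and 7.57%. For Cd163, on this list, the mean sepsis effect was -2.52 ± 0.47 on the log2 scale (adjusted p = 8.28e-05). The part of macrophages in the Slc40a1 values, and that of the B cell and erythroid markers that were lower in the same groups, was not tested.

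Hmox1 had 45.7, 48.4 and 37.1 CPM in sepsis preNeu, against 16.7, 24.5 and 21.4 CPM in preNeu, and 9.91, 11.3 and 11.1 CPM in sepsis proNeu2, against 3.15, 5.90 and 1.96 CPM in proNeu2. Neither pair overlapped. The changes of 1.00 ± 0.57 (adjusted p = 0.299) and 1.57 ± 0.60 (adjusted p = 0.0741) were not called. The mean effect of 0.75 ± 0.30 was called at an adjusted p of 0.0486 and lost in 23 of 36 alternatives, with an adjusted p of up to 0.322. In Ly6C- GMP Hmox1 had 7.08, 4.77 and 2.90 CPM in sepsis, against 15.6, 17.7 and 0.723 CPM in control, with overlap through 1 control library. Without that library, Ly6C- GMP replicate 3, the change was called there (adjusted p = 0.0132) and the effects differed between populations (interaction adjusted p = 0.00271), and with it neither passed (0.233 and 0.124). Those 23 losses include leaving out sepsis Ly6C- GMP replicate 1 or 2, proNeu1 replicate 2, proNeu2 replicate 1 or 3, preNeu replicate 1 or 3, sepsis proNeu1 replicate 1 or 2, or any 1 sepsis proNeu2 or sepsis preNeu library.

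Slc11a1 had 20.0, 34.2 and 17.2 CPM in sepsis preNeu, against 7.41, 2.65 and 3.26 CPM in preNeu. The libraries did not overlap, and the change of 2.31 ± 1.00 was not called (adjusted p = 0.147). Of 5 monocyte markers 3 were called higher in sepsis preNeu, against 7.57% of all genes. The summed level of the 5 was 1003 to 1062 CPM, against 547 to 1283 CPM in preNeu. The part of such cells was not tested. Aco1 had 34.4, 40.1 and 34.7 CPM in sepsis preNeu, against 23.4, 16.6 and 25.6 CPM in preNeu, with no overlap and a change of 0.69 ± 0.24 that was not called (adjusted p = 0.0641). Slc11a2 had 12.7, 11.3 and 8.92 CPM in sepsis preNeu, against 4.20, 4.72 and 11.8 CPM in preNeu, with overlap through preNeu replicate 3. Its change of 0.73 ± 0.33 (adjusted p = 0.172) was called without that library and without all shallow libraries, of which it is 1 (adjusted p = 0.012 for these). Ireb2 changes in sepsis lay between -0.10 and 0.02 with an SE of 0.27.

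A wider list of 64 iron and haem genes, of which 53 were tested, gives the setting. In preNeu against proNeu2, 8 rose, 20 fell and 25 were not called, with a median of -0.28 against 0.00 for all genes; over all genes 13.1% rose and 14.7% fell. Of the 21 tested genes of mitochondrial iron and haem synthesis 12 fell and 1 rose there, against the same shares. They include Cpox, coproporphyrinogen oxidase of haem synthesis, at 2.24 CPM in preNeu, against 13.7 CPM in proNeu2 (log2 change -2.33 ± 0.34, adjusted p = 5.09e-06). Steap3, a ferrireductase of the endosome, fell to 7.88 CPM in preNeu, against 25.6 CPM in proNeu2 (-1.72 ± 0.47, adjusted p = 0.00568). In the same comparison Ltf, lactoferrin of the specific granules, and Lcn2, the siderophore-binding lipocalin 2, rose by 6.54 ± 0.53 and 6.67 ± 0.38 on the log2 scale (adjusted p = 2.58e-10 and 2.49e-13).

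In proNeu1 against Ly6C- GMP 6 of the 53 rose and 1 fell, against 6.04% of all genes called, and in proNeu2 against proNeu1 1 rose and 1 fell, against 3.05%. Fewer of all genes were called at these steps too. Tfr2, the second transferrin receptor, fell to 21.7 ± 3.52 CPM in proNeu1, against 93.6 ± 13.9 CPM in Ly6C- GMP (log2 change -1.99 ± 0.56, adjusted p = 0.0317). In cMoP it was at 2.70 ± 1.82 CPM (-5.07 ± 0.64 against Ly6C- GMP, adjusted p = 3.01e-06), and it was at 0 in all TpMo and Ly6Chi monocyte libraries. The part of other cell types in the Ly6C- GMP level of Tfr2 was not tested. Hp, haptoglobin, which binds free haemoglobin, rose by 1.79 ± 0.11 in proNeu1 against Ly6C- GMP (adjusted p = 2.18e-11) and by 0.66 ± 0.11 in proNeu2 against proNeu1 (adjusted p = 0.000935). Ltf and Lcn2 already rose in proNeu1 against Ly6C- GMP, by 5.42 ± 0.50 and 2.87 ± 0.34 (adjusted p = 1.39e-08 and 8.85e-07). Control Ltf was at 25.3 CPM in Ly6C- GMP, 993 CPM in proNeu1 and 417 CPM in proNeu2.

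On the monocyte path 4 of the 53 genes rose and 9 fell in cMoP against Ly6C- GMP, where 9.22% of all genes rose and 7.96% fell. In TpMo against cMoP 8 rose and 10 fell, against 9.52% and 8.56%, and in Ly6Chi monocytes against TpMo 9 rose and 9 fell, against 7.59% and 13.3%. Lrp1, a scavenger receptor that takes up haem bound to haemopexin, had 36.4 ± 8.41 CPM in cMoP, 113 ± 6.31 CPM in TpMo and 448 ± 21.6 CPM in Ly6Chi monocytes. It rose by 1.83 ± 0.31 in TpMo against cMoP (adjusted p = 7.23e-05) and by 2.00 ± 0.31 in Ly6Chi monocytes against TpMo (adjusted p = 1.33e-05). Alas1, the first enzyme of haem synthesis, fell to 152 CPM in TpMo, against 866 CPM in cMoP (-2.31 ± 0.10, adjusted p = 3.16e-16). Ncoa4, which delivers ferritin to lysosomes, fell to 82.4 ± 9.84 CPM in TpMo, against 207 ± 13.5 CPM in cMoP (-1.13 ± 0.16, adjusted p = 7.67e-06), and Slc25a37, the mitochondrial iron importer mitoferrin 1, fell by 1.44 (adjusted p = 2e-06). Between paths 13 of the 53 were higher and 3 lower in proNeu1 than in cMoP, against 8.25% and 8.03% of all genes, and 17 were higher and 16 lower in preNeu than in Ly6Chi monocytes, against 21.0% and 18.9%.

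In sepsis the 53 tested genes of the wider list had 10 rises and 7 falls in Ly6C- GMP, against 17.7% of all genes called, and 9 and 11 in proNeu1, against 15.6%. They had 7 and 7 in proNeu2, against 17.0%, and 9 and 2 in preNeu, against 11.8%. For the mean effect they had 17 rises and 13 falls, against 37.1%, and 11 had effects that differed between populations, against 6.34%. The list's median log2 change was 0.00, -0.03, 0.06 and 0.11 in the 4 populations, beside -0.01, -0.03, 0.00 and 0.00 for all genes. Lrp1 rose in each population, to 73.6 ± 20.2 CPM in sepsis preNeu, against 8.65 ± 5.53 CPM in preNeu (log2 change 3.17 ± 0.34, adjusted p = 2.14e-07). Lyrm4, which supports iron-sulphur cluster assembly, fell by 1.36 in sepsis Ly6C- GMP, 1.59 in sepsis proNeu1 and 1.66 in sepsis proNeu2 (adjusted p = 5.92e-05, 1.52e-05 and 5.88e-06). Hfe, which acts with the transferrin receptors in iron sensing, rose by 1.33 ± 0.22 in sepsis Ly6C- GMP and by 1.42 ± 0.22 in sepsis preNeu (adjusted p = 5.85e-05 and 6.28e-05).

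Lcn2 rose by 4.31 ± 0.35 in sepsis Ly6C- GMP, 2.36 ± 0.31 in sepsis proNeu1 and 3.55 ± 0.33 in sepsis proNeu2 (adjusted p = 1.28e-09, 6.05e-06 and 1.39e-08). Ltf fell by 4.76 in sepsis proNeu1, 1.74 in sepsis proNeu2 and 1.78 in sepsis preNeu (adjusted p = 1.39e-07, 0.00453 and 0.00539). In proNeu1 it was at 34.7 CPM in sepsis, against 993 CPM in control. Of the 7 neutrophil-path markers, which include Ltf, 6 fell in sepsis proNeu1, 4 in sepsis proNeu2 and 3 in sepsis preNeu, where 2 rose. Of all genes 7.3%, 7.57% and 4.21% fell in these comparisons, and 7.57% rose in sepsis preNeu. The part of stage composition in these iron genes was not tested. Steap4, a metalloreductase, was at 11.5 ± 2.33 CPM in sepsis preNeu, against 0.0588 ± 0.102 CPM in preNeu, and was called (adjusted p = 0.021).

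Genes whose pattern was closest to each of the 9 were ranked by Pearson correlation of mean log2(CPM + 1) over the 11 groups, among 8353 genes at 10 CPM or more. These correlations describe 11 points that share the same libraries. Tfrc was closest to Uchl5 (0.99), Slc35b2 (0.98) and Sfxn1 (0.98), and Slc11a2 to Gcsh (0.99), Ndufaf4 (0.99) and AU020206 (0.99). Slc11a1 was closest to Clec4a1 (0.99), Tlr13 (0.98) and Hacd4 (0.98), and Slc40a1 to Sytl1 (0.99), Nlrp12 (0.98) and Mogat2 (0.98). Fth1 was closest to Trps1 (0.97), Sesn2 (0.97) and Nt5c (0.97), and Ftl1 to Cstb (0.98), Nlrp1a (0.96) and Ctsa (0.96). Hmox1 was closest to Stk17b (0.97), Lyn (0.97) and Osbpl9 (0.97), and Aco1 to Tmem173 (0.96), Tmbim1 (0.96) and Ldah (0.96). Ireb2, the gene with the smallest span, had the lowest values, with Tmem241 (0.84), Kif2a (0.83) and Orc4 (0.81).

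Among the 9 genes themselves, over the same 11 group means, Slc11a1 and Hmox1 had a correlation of 0.92, and Tfrc was opposite to both, at -0.96 with Slc11a1 and -0.89 with Hmox1. Outside TpMo, Ly6Chi monocytes and sepsis preNeu the Slc11a1 means were only 0.472 to 4.44 CPM, so those groups weigh most in all its correlations. Fth1 and Ftl1 had 0.78 with each other, and -0.82 and -0.76 with Slc40a1.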

How the data were processed

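Per the labels' protocols, RNA from sorted cells was amplified by a SMARTSeq v2 method and sequenced as read pairs; per the submitters' processing notes, reads were aligned with STAR to GRCm38 and counted with featureCounts (versions not given). The deposited table holds raw counts per gene. Strand setting and handling of mates and of reads with several positions are not given in the sources used here; 76.2% of counts from 1 to 10 were even. Genes that overlap Ftl1 or Slc11a2 had at most 0.415 CPM. Exon lengths for RPKM are those of the deposited table.

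CPM used library totals. Tests used edgeR 4.0.16 (R 4.3.3): filterByExpr, TMM factors, 1 quasi-likelihood fit of 33 libraries (biological coefficient of variation 0.472, 22 residual degrees of freedom), 14 tests, each adjusted by Benjamini-Hochberg over 18198 genes. The edgeR test was tried on simulated counts for sepsis proNeu1 against proNeu1 only, with gene means otherwise equal in all groups. That simulation does not cover the other comparisons or the real differences between groups. The alternatives were DESeq2 1.42.0, RLE factors, 2 other filters on low counts (none, or 5 CPM in 3 libraries), a fit of the compared libraries alone, pseudogene counts added, each library or population left out, and no shallow libraries (under 10 Mcounts); library totals as the only scaling were chosen after seeing the data. The 9 genes and all lists were chosen with earlier results of these data known. Of the wider list, up to 3 called genes with the largest rise and 3 with the largest fall per comparison, with a group mean of at least 10 CPM, could be named. UTR sequences came from the reference genome's annotated transcripts.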

Additional observations from a re-analysis of the deposited data

Results flagged for a closer look

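The sepsis effect on both ferritin chains differed between the 4 populations by an interaction test in edgeR. For Fth1 the adjusted p was 0.0206, with log2 changes for Ly6C- GMP, proNeu1, proNeu2 and preNeu of 0.41, 0.38, 0.80 and 1.08. For Ftl1 the adjusted p was 6.63e-06, with -0.07, -0.11, 0.06 and 1.14 in the same order.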

How the results depend on the processing

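Of 126 pairs of a gene and a comparison, 40 were called, and 29 of these were called in every alternative run for them. The other 11 were lost in at least 1, and 19 of 86 uncalled pairs were called in at least 1. The number of the 9 genes called was 1 in proNeu1 against Ly6C- GMP with no filter, with library totals and without shallow libraries. Over all genes these settings called 901 of 28239, 1050 of 18198 and 932 of 19048. In Ly6Chi monocytes against TpMo 5 of the 9 were called with only the libraries compared, against 3155 of 13900 genes. In sepsis Ly6C- GMP it was 1 of the 9 with no filter and 0 with library totals, against 2631 of 28239 and 3190 of 18198 genes. In sepsis proNeu1 it was 0 of the 9 with no filter, with library totals and without shallow libraries. Over all genes these called 2277 of 28239, 2869 of 18198 and 1745 of 19048. In sepsis proNeu2 it was 2 of the 9 with DESeq2 and 3 with only the libraries compared, against 3884 of 15368 and 3186 of 13266 genes. In sepsis preNeu it was 4 of the 9 with only the libraries compared, against 1219 of 13281 genes. With each library left out in turn, the count of the 9 ranged from 0 to 2 in proNeu1 against Ly6C- GMP, 0 to 1 in proNeu2 against proNeu1, 3 to 5 in Ly6Chi monocytes against TpMo, 0 to 2 in sepsis Ly6C- GMP and 0 to 1 in sepsis proNeu1. Over all genes these refits called 711 to 907, 226 to 446, 2990 to 3399, 2319 to 2588 and 1880 to 2266, of 19206 to 19394 tested. The sign of a called pair changed only for the mean Ftl1 effect, at -0.042 without preNeu (adjusted p = 0.692), where by construction the population with its rise is absent. The cause of the other changes was not tested. Counts over all genes more than 1.5 times apart arose with DESeq2, at 1102 against 555 in proNeu2 against proNeu1 and 2118 against 1154 for the interaction, and with only the libraries compared, at 353 against 555 and, in sepsis preNeu, 1219 against 2145. Without shallow libraries sepsis proNeu1 gave 1745 against 2839. With each library left out in turn such counts ranged from 226 to 446 against 555 in proNeu2 against proNeu1, 711 to 907 against 1100 in proNeu1 against Ly6C- GMP, 1880 to 2266 against 2839 in sepsis proNeu1, 2060 to 2694 against 3097 in sepsis proNeu2, 1226 to 2646 against 2145 in sepsis preNeu, and 734 to 1403 against 1154 for the interaction. No paired analysis was possible because the replicate numbers were given in accession order and pair nothing. In the 3 libraries with no Slc11a1 count, levels of up to 0.143 to 0.173 CPM could not be seen at their depth, if each count is independent.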
